A study of Mus musculus with 21 samples.

Results

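Enzymes of xenobiotic metabolism were followed across sorted cells of the mouse small intestine. They were taken as the genes whose symbols belong to the cytochrome P450 families Cyp1 to Cyp4, the carboxylesterases (Ces), the epoxide hydrolases (Ephx), the glutathione S-transferases (Gst), the UDP-glucuronosyltransferases (Ugt) and the sulfotransferases (Sult). The arrays named 117 such enzyme genes among 18194 genes with a symbol of their own. Each gene was read through 1 probe set, the one with the highest mean over the sorted arrays. Of the 117 enzymes, 63 exceeded the array's median on 2 or more of the 20 sorted arrays and were tested. The tested enzymes were 11 of 13 Ces genes, 12 of 35 Cyp2, 3 of 5 Cyp3, 6 of 13 Cyp4, 2 of 4 Ephx, 18 of 20 Gst, 6 of 13 Sult and 5 of 11 Ugt, and 0 of 3 Cyp1.

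The 20 sorted samples were TdTomato-positive cells labelled Mist1+, separated by the surface protein CD24 into a low (CD24lo) and a high (CD24hi) fraction. Both fractions were taken in 5 conditions, with 2 arrays for each combination. The conditions were untreated, Lgr5-ablated (titled DT, which the labels do not spell out), irradiated with 10 Gy, NICD, and doxorubicin, a drug that damages DNA (spelled doxorubucin in the titles). NICD is the usual name for the intracellular part of a Notch receptor, and the labels neither spell it out nor name the allele. A single array of whole intestine, whose cell type is given as villi, had no replicate and entered no test. All sorted groups carried the TdTomato label. The labels give no driver of TdTomato or of NICD, no strain, age, drug dose or time after treatment, and no group with DT but without ablation. Whether the 2 arrays of a group stand for different animals is not stated, so each p-value measures the spread between these samples, which may be technical.

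Xenobiotic metabolism is usually described in phases. Cytochromes P450 oxidise drugs, plant compounds and fatty acids, carboxylesterases cleave ester bonds and epoxide hydrolases open the reactive epoxides that P450 enzymes can leave behind. Glutathione S-transferases, UDP-glucuronosyltransferases and sulfotransferases then attach a polar group, and efflux carriers move the product out of the cell. In the intestine these enzymes are best known from the absorptive enterocytes of the villus, where they act on what is taken up from food. Mist1, encoded by Bhlha15, marks secretory cells instead.

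Levels below are log2(signal + 16), where signal is the authors' scaled intensity. A signal of 0 gives a level of 4, a step of 1 is a factor of 2 for a bright probe set, and the change of a dim gene is understated. Levels are compared between arrays within a gene and not between genes. Errors are standard errors (SE) of the fitted differences, with n = 2 arrays in each group. Bhlha15 ran from 7.83 to 9.41 in CD24lo cells and from 10.29 to 12.21 in CD24hi cells and read 5.68 in whole intestine, and Cd24a ran from 12.95 to 13.55 and from 13.83 to 14.73, so the fractions did not overlap in either gene. For Lgr5 the CD24lo arrays ran from 8.44 to 8.90 untreated and from 6.53 to 7.98 after ablation, and the CD24hi arrays from 10.95 to 11.48 and from 9.65 to 10.17. In a bulk sample, fewer cells of a type and less RNA per cell cannot be told apart. A single array stood apart. NICD CD24hi replicate 2 had 75343 as the signal of its cre spike-in control, where 22819 to 48833 was seen across the remaining 19, and an actin ratio of 3' to 5' probe sets of 1.03 against 1.30 to 1.58, and results with NICD in CD24hi cells are given with and without it.

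Promoters are shown for the enzymes that carry the treatment results. Cyp3a11 (the main drug-oxidising P450 of its family in mouse), Ephx1 (microsomal epoxide hydrolase) and Ces1g (a carboxylesterase of lipid and drug esters) were the 3 enzymes whose rise after doxorubicin held in both fractions without any 1 array. Their 250 bases upstream of the RefSeq start, on GRCm38.p6 and all on the minus strand, are printed 5' to 3' with AGGTCA, the half-site of many nuclear receptors, and CAAAGTCCA, a core bound by HNF4, in capitals.
Cyp3a11, chr5:145879855-145880104: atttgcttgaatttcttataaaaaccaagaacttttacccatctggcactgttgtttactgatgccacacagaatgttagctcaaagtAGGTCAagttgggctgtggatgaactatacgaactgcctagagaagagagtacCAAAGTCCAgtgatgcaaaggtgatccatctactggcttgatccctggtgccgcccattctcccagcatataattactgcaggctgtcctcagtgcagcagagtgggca
Ephx1, chr1:181017570-181017819: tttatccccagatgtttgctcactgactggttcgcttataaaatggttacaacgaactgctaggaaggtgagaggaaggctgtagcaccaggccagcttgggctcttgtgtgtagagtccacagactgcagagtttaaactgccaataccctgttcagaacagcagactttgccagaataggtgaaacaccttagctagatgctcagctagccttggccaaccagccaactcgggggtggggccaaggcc
Ces1g, chr8:93337210-93337459: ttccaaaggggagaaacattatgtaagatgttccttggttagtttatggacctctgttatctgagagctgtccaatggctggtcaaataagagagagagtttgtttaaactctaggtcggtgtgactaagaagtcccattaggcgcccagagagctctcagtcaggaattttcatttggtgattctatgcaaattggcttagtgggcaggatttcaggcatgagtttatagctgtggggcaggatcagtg
A set of 6 motifs was searched on both strands from 250 bases before to 50 after the start of 95 of the 117 enzymes, which have 113 promoters in the RefSeq table, and of 32851 RefSeq promoters. CAAAGTCCA was in 6 of the 113 promoters (5.31%) and in 0.475% of all promoters, and by gene in 4 of the 55 tested enzymes with a promoter (7.27%). Besides Cyp3a11 at position -109 these were Sult1b1, just after the start of one of its promoters, and the P450 genes Cyp2c65 and Cyp2c68. The P450 matches are shown because the same 9 letters recur in a gene cluster of chromosome 19. The motif was also in Cyp2c70 and Cyp3a16, which were not tested. Cyp2c65, Cyp2c68 and Cyp2c70 lie in 1 cluster of related genes and Cyp3a11 and Cyp3a16 in another. The 6 promoters are therefore not independent, which limits what the share of 5.31% can show.
Cyp2c65, position -116, chr19:39060880-39060908, plus strand: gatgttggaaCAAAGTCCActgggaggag
Cyp2c68, position -77, chr19:39741160-39741188, minus strand: atcattgaaaCAAAGTCCAattggaagag
Cyp3a11, position -109, chr5:145879945-145879973, minus strand: aagagagtacCAAAGTCCAgtgatgcaaa
AGGTCA was in 22.1% of the enzymes' promoters and 16.3% of all, but in 16.4% of the tested enzymes, with 1 copy at position -162 of Cyp3a11. Ephx1 and Ces1g held none of the 6 motifs in this window. TGACNNNGC, the antioxidant response core, was in 7.08% of the enzymes' promoters, 12.7% of the tested enzymes and 12.4% of all promoters. For GCGTG, the core bound by AHR, these shares were 21.2%, 27.3% and 32.4%, and for the p53 half-site 9.73%, 7.27% and 8.36%. A direct repeat of AGTTCA spaced by 3 bases was in 0 promoters of any of these sets. It was searched with no mismatch allowed and matched 0 of all 32851 promoters. That search therefore cannot tell whether an enzyme's promoter, such as that of Cyp3a11, holds a variant of the repeat. Shares of tested enzymes count a gene with the motif in any of its promoters. On the opposite strand AGGTCA begins with the TGAC of TGACNNNGC, so matches to these 2 can overlap. A match is a description of the letters and not a binding site.

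The first question was how the 2 fractions differ in untreated tissue. The enzymes were lower in the CD24hi cells, which were the richer in Bhlha15. Of the 63 tested, 25 (39.7%) were lower and 0 higher in CD24hi cells at an adjusted p under 0.05 (limma), while 6.88% of all 11825 genes tested were lower and 7.51% higher. The median difference was -0.99 over the enzymes and 0.05 over all genes. The 25 comprised 6 of 11 Ces, 5 of 12 Cyp2, 2 of 3 Cyp3, 2 of 6 Cyp4, 6 of 18 Gst, 2 of 6 Sult and 2 of 5 Ugt genes, while neither of the tested epoxide hydrolases was called and no Cyp1 gene was tested.

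Among the oxidising enzymes, Cyp3a11 read 9.84 and 8.47 on the CD24lo arrays and 6.64 and 6.13 on the CD24hi arrays, a difference of -2.77 ± 0.45 (SE, adjusted p = 0.000586). Both CD24lo arrays lay above both CD24hi arrays. Cyp4f14, a hydroxylase of fatty acids and leukotrienes, read 11.69 and 11.14 against 8.38 and 8.52 (-2.97 ± 0.62, adjusted p = 0.00397). Cyp2d26 read 10.69 and 9.94 against 8.13 and 7.37 (-2.57 ± 0.51, adjusted p = 0.00279). The 2 fractions did not overlap for either gene. The other P450 enzymes past the threshold were Cyp3a13 (-2.07), Cyp2c65 (-1.97), Cyp2s1 (-1.79), Cyp2b10 (-1.43), Cyp2u1 (-1.15) and Cyp4f16 (-1.03). A second probe set of Cyp4f16 did not pass (-0.26, adjusted p = 0.63), nor did the 2 other probe sets of Cyp2b10 (-1.19 and -1.26).

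Among the hydrolases the carboxylesterases Ces1f, Ces2e, Ces2g, Ces2a, Ces1g and Ces2f were lower in CD24hi cells. Ces1f read 11.34 and 10.03 against 8.11 and 6.42 (-3.42 ± 0.95, adjusted p = 0.0225), and Ces1g read 6.66 and 6.40 against 5.10 and 4.69 (-1.64 ± 0.40, adjusted p = 0.00997). For both genes the CD24lo arrays were the higher pair, and the spread within a pair reached over 1 unit for Ces1f. All of these Ces1g levels lay below 6.87, the lowest median level of a sorted array. The CD24hi pair of Ces1g was near the level of a zero signal. The second probe set of Ces2f did not pass (-0.76, adjusted p = 0.41). Ephx1 went the other way without passing the test. It read 8.19 and 7.93 in CD24lo cells and 9.85 and 8.31 in CD24hi cells (1.02 ± 0.35, adjusted p = 0.061).

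The largest difference of any enzyme in this comparison was that of Gsta4, the glutathione S-transferase that takes up aldehydes from lipid peroxidation. Its level was 12.93 and 12.13 in untreated CD24lo cells and 8.70 and 7.64 in CD24hi cells (-4.36 ± 0.40, adjusted p = 4e-06). Gsta3 read 7.28 and 7.41 against 4.77 and 4.30, the latter close to the level of a zero signal (-2.81 ± 0.40, adjusted p = 0.000179). The fractions stood wholly apart for both transferases. Gstm3 (-2.37), Gstp3 (-1.54), Gstk1 (-1.34) and Gstp1 (-0.74) were also lower, although a second probe set of Gstm3 did not pass (-2.54, adjusted p = 0.16). Among the glucuronosyltransferases Ugt2b5 read 9.95 and 8.34 against 6.43 and 5.84 (-3.01 ± 0.74, adjusted p = 0.011) and Ugt2a3 differed by -2.50. Of the sulfotransferases, Sult1b1, which acts on phenols and thyroid hormone, differed by -2.18, and Sult2b1, which acts on cholesterol, read 8.86 and 8.32 against 6.86 and 6.88 (-1.72 ± 0.34, adjusted p = 0.00279).

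**Figure D1:**
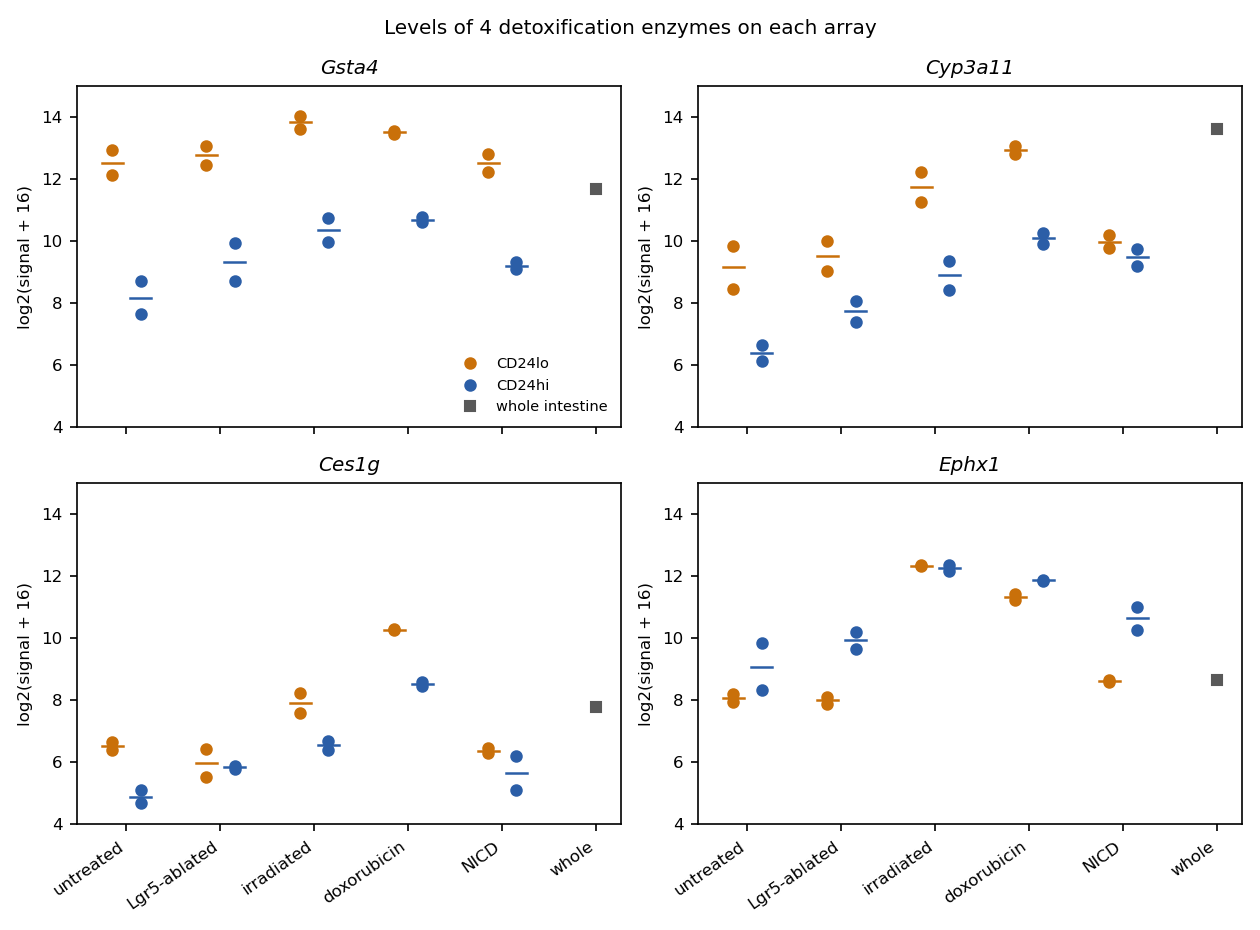
Level, log2(signal + 16), of Gsta4, Cyp3a11, Ces1g and Ephx1 on each of the 21 arrays, with 1 point per array, CD24lo and CD24hi cells of the 5 conditions side by side and whole intestine at the right. Gsta4 in CD24lo cells was above every CD24hi array, while Ephx1 was highest in both fractions after irradiation, at 12.18 to 12.36.

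These calls leaned on few arrays. Of the 25, 8 held without any 1 of the 4 arrays (Gsta4, Cyp4f14, Gsta3, Cyp3a11, Cyp2d26, Cyp3a13, Sult2b1 and Gstp3), and the count was 8 when untreated CD24lo replicate 1 was left out and 11 when untreated CD24hi replicate 2 was. Averaged over the 5 conditions, which used all 20 arrays, 43 enzymes (68.3%) were lower and 6 (9.52%) higher in CD24hi cells, against 19.2% and 27.4% of all genes. The 43 include Cyp2d22 and Gsta2, which were tested only because they exceeded the array median on CD24lo arrays. The median difference was -0.80 over the enzymes and 0.07 over all genes. Of these 49 calls 48 held without any 1 array, and the exception was Ugt2b35 (-0.72, adjusted p = 0.0345). The lower enzymes were all 5 tested Ugt, all 3 Cyp3, 5 of 6 Cyp4, 9 of 12 Cyp2, 7 of 11 Ces, 10 of 18 Gst, 3 of 6 Sult and 1 of 2 Ephx. Gsta4 (-3.48 ± 0.18, adjusted p = 2.83e-10) again had the largest difference, followed by Ces1f (-2.63 ± 0.43), Ugt2a3 (-2.59 ± 0.31), Ugt2b5 (-2.49 ± 0.33) and Cyp4f14 (-2.37 ± 0.28).

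Gsta4, Sult2b1 and Cyp2s1 were lower on all 10 CD24hi arrays than on every CD24lo array, whatever the treatment. These 3 are 4.76% of the 63 tested enzymes, against 1.61% of all genes tested, and 0 enzymes against 2.8% of all genes had every CD24hi array above every CD24lo array. Gsta4 ran from 12.13 to 14.04 over the CD24lo arrays with a median of 13.00 and from 7.64 to 10.77 over the CD24hi arrays with a median of 9.64. Cyp2s1, an epithelial P450 inducible through AHR, ran from 8.84 to 10.49 with a median of 9.92 against 7.41 to 8.76 with a median of 8.08.

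The 6 enzymes higher in CD24hi cells on average were Cyp2e1, Ephx1, Gstm5, Sult1c2, Cyp2r1 and Gstz1. Ephx1 (1.09 ± 0.16, adjusted p = 2.49e-05) was higher in both CD24hi arrays than in both CD24lo arrays of the untreated, Lgr5-ablated, NICD and doxorubicin groups and overlapped between the fractions after irradiation. Gstm5 (0.84 ± 0.08, adjusted p = 2.91e-07), a transferase of the mu class, read 10.86 and 11.16 in untreated CD24lo cells and 11.42 and 11.45 in CD24hi cells. Its neighbour in the same cluster on chromosome 3, Gstm3, went the other way (-2.09 ± 0.28). Cyp2e1, the P450 that oxidises ethanol, had the largest mean difference (1.53 ± 0.43, adjusted p = 0.00789) but scattered within groups, at 8.96 and 5.61 on the 2 untreated CD24hi arrays. It exceeded the array median on 1 CD24lo and 6 CD24hi arrays, so it was tested only because it was high on CD24hi arrays. Gstz1, which also acts in tyrosine breakdown, differed by 0.53 ± 0.09 with the NICD groups and by 0.29 without them.

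**Figure D2:**
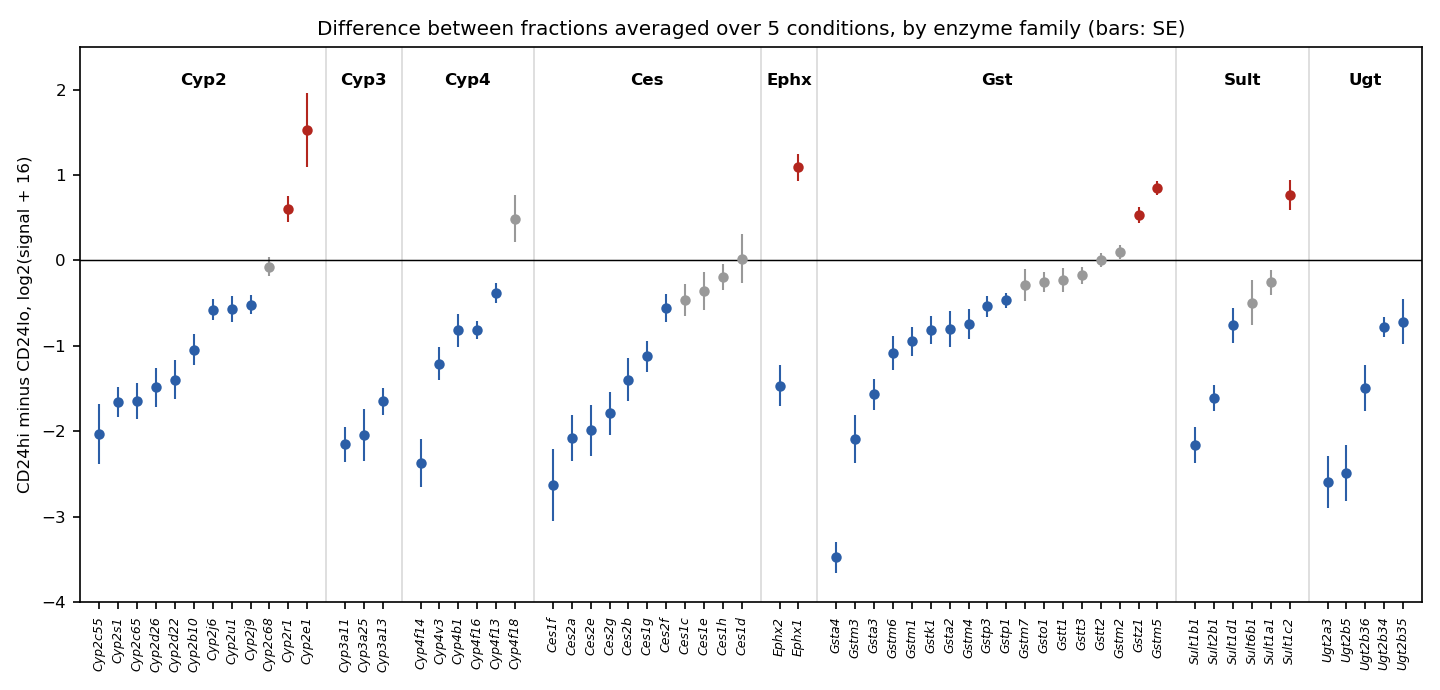
Difference in level between CD24hi and CD24lo cells, averaged over the 5 conditions, for each of the 63 tested enzymes by family, with 1 point per gene and values below 0 for enzymes lower in CD24hi cells. All 5 Ugt and all 3 Cyp3 enzymes lie below 0, and the enzymes above 0 that passed the test belong to the Cyp2, Ephx, Gst and Sult families.

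Markers of absorptive enterocytes moved with the same split. Of 18 tested genes of a list of 20 enterocyte markers, such as Alpi, Lct and Apoa4, 15 were lower and 0 higher in untreated CD24hi cells, with a median difference of -1.95. The sum of their signals, on the log2 scale, ran from 16.36 to 16.63 in untreated CD24lo and from 14.89 to 15.18 in untreated CD24hi cells. Over all conditions all 18 were lower in CD24hi cells, and the summed level ran from 15.60 to 17.66 in CD24lo and from 14.85 to 16.08 in CD24hi arrays. Of the other epithelial lists in untreated cells, the goblet list also summed lower in the CD24hi fraction, at 16.23 to 16.62 against 17.03 to 17.35. The stem cell list summed higher there, at 15.48 to 15.60 against 14.25 to 14.43. The Paneth and tuft cell lists also summed higher without overlap, and the enteroendocrine list overlapped between the fractions. The part of these lists in the difference of the enzymes was not tested.

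The next comparison was irradiation with 10 Gy against no treatment. A small set of enzymes rose, and the same 5 passed the test in both fractions, namely Ephx1, Cyp3a11, Gsta3 and the carboxylesterases Ces2b and Ces2f. In CD24lo cells 5 of 63 enzymes (7.94%) were higher and 0 lower, against 1.57% and 2.45% of all genes. In CD24hi cells 8 (12.7%) were higher and 0 lower, against 1.11% and 3.33%. The 5 shared enzymes are all of those called in CD24lo cells and 62.5% of those called in CD24hi cells. The same overlap over all genes was not counted, for this or any other treatment. Whether the sharing is particular to the enzymes is therefore not known. The fractions share no arrays, but the sample titles do not say whether they share animals, so they may not be independent. The median change over all 63 was 0.42 in CD24lo and 0.25 in CD24hi cells.

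Ephx1 rose most. Its level was 8.19 and 7.93 in untreated and 12.32 and 12.36 in irradiated CD24lo cells (4.27 ± 0.35, adjusted p = 4.1e-06), and 9.85 and 8.31 against 12.18 and 12.35 in CD24hi cells (3.18 ± 0.35, adjusted p = 4.92e-05). The irradiated arrays agreed closely and lay above every untreated array. The difference between the fractions' changes did not pass (-1.09 ± 0.49, adjusted p = 1). Ephx2, the soluble epoxide hydrolase, read 11.51 and 10.55 before and 11.23 and 11.72 after irradiation in CD24lo cells, so its groups overlapped.

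Cyp3a11 went from 9.84 and 8.47 to 11.25 and 12.24 in CD24lo cells (2.59 ± 0.45, adjusted p = 0.00394) and from 6.64 and 6.13 to 8.42 and 9.36 in CD24hi cells (2.51 ± 0.45, adjusted p = 0.00285). Both irradiated arrays of each fraction were above both untreated ones. Gsta3 went from 7.28 and 7.41 to 9.06 and 9.40 in CD24lo cells (1.88 ± 0.40, adjusted p = 0.0133) and from 4.77 and 4.30 to 6.46 and 7.71 in CD24hi cells (2.55 ± 0.40, adjusted p = 0.00101). Ces2b rose by 2.49 ± 0.56 in CD24lo and 2.27 ± 0.56 in CD24hi cells, and Ces2f by 1.90 ± 0.36 and 2.10 ± 0.36. The second probe set of Ces2f changed by 1.95 (adjusted p = 0.0525) and 0.53 (adjusted p = 0.72), so the rise in CD24hi cells rests on 1 of its probe sets.

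A further 3 enzymes passed in CD24hi cells, of which Ces1g lay below the lowest array median (6.87) on every untreated and irradiated CD24hi array. Gsta4 went from 8.70 and 7.64 to 9.97 and 10.76 (2.19 ± 0.40, adjusted p = 0.00359), Cyp2b10, a target of the receptor CAR, from 9.32 and 8.59 to 10.98 and 11.13 (2.10 ± 0.40, adjusted p = 0.00416) and Ces1g from 5.10 and 4.69 to 6.68 and 6.40 (1.65 ± 0.40, adjusted p = 0.0218). In CD24lo cells Gsta4 read 14.04 and 13.62 after irradiation (1.30 ± 0.40, adjusted p = 0.0811) and Ces1g 7.60 and 8.24 (1.39 ± 0.40, adjusted p = 0.0597). For both the irradiated arrays were above the untreated ones, and neither passed. No enzyme passed the test for a difference between the fractions' changes (0 of 63, limma), where 0.00846% of all genes did and 2 enzymes had an unadjusted p under 0.05.

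Ephx1 in CD24lo cells and Ephx1, Cyp3a11, Gsta3 and Ces2f in CD24hi cells held without any 1 array. Gsta4 and Cyp2b10 lost their calls without untreated CD24hi replicate 2 (adjusted p = 0.0671 and 0.0678). In CD24lo cells 1 enzyme was left without untreated replicate 2, 1 without irradiated replicate 2 and 2 without irradiated replicate 1, and Cyp3a11 reached an adjusted p of at most 0.0699. In CD24hi cells 5 were left without untreated replicate 2. The enterocyte list had 0 of 18 genes past the threshold in either fraction, with medians of 0.17 and 0.40 and a summed level of 16.65 to 16.70 and 14.85 to 15.43 after irradiation. Stem cell markers fell in 4 of 10 genes in CD24lo and 3 of 10 in CD24hi cells, where 4 of 10 goblet cell genes rose. The fibroblast list had 0 of 2 tested genes past the threshold and summed to 10.61 to 11.45 against 9.48 to 9.69 untreated in CD24lo and to at least 10.79 against at most 10.00 in CD24hi cells. The part of these lists in the change of the enzymes was not tested.

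**Figure D3:**
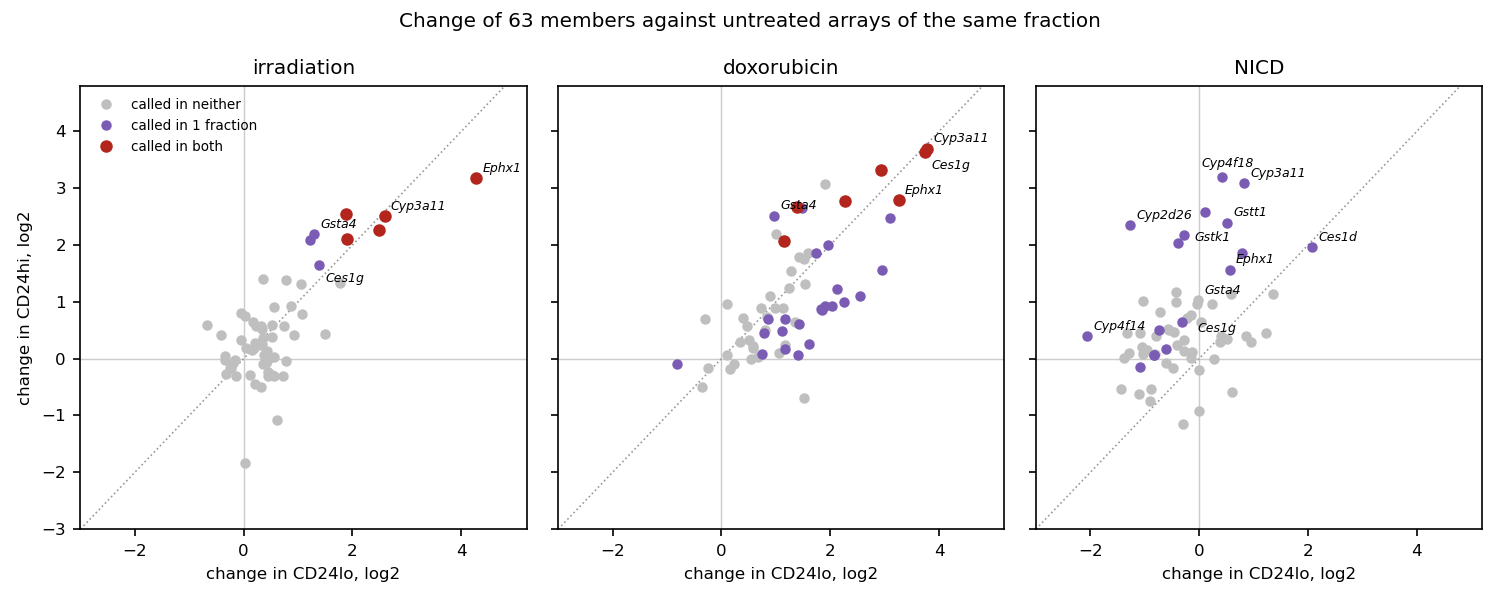
Change in level against untreated cells after irradiation, doxorubicin and NICD, with the change in CD24lo cells on the horizontal and that in CD24hi cells on the vertical axis and 1 point per tested enzyme, coloured by whether it passed the test in both fractions (red), in 1 (purple) or in neither (grey). Ephx1, Cyp3a11, Gsta3, Ces2b and Ces2f passed in both fractions after irradiation, and 0 enzymes passed in both fractions with NICD.

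Doxorubicin was compared with the same untreated arrays. Many of the tested enzymes rose in CD24lo cells and fewer passed in CD24hi cells, and Cyp3a11 and Ces1g rose by 3.64 to 3.78 in each fraction. In CD24lo cells 27 of 63 enzymes (42.9%) were higher and 1 (1.59%) lower, against 5.47% and 9.3% of all genes, and the median change was 1.17 over the enzymes and -0.06 over all genes. In CD24hi cells 9 (14.3%) were higher and 0 lower, against 0.795% and 0.397%, with a median of 0.87. In both fractions 7 enzymes rose, which is 25.9% of those in CD24lo and 77.8% of those in CD24hi cells, with no count of this overlap over all genes to set beside it. The 7 enzymes were Cyp3a11, Ces1g, Ephx1, Gsta3, Ces2b, Ces2f and Ugt2b5.

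Cyp3a11 reached 13.05 and 12.82 in CD24lo cells after doxorubicin, from 9.84 and 8.47 (3.78 ± 0.45, adjusted p = 0.000148), and 9.92 and 10.25 in CD24hi cells, from 6.64 and 6.13 (3.70 ± 0.45, adjusted p = 0.000467). Ces1g reached 10.25 and 10.31 from 6.66 and 6.40 in CD24lo cells (3.75 ± 0.40, adjusted p = 6.27e-05) and 8.59 and 8.47 from 5.10 and 4.69 in CD24hi cells (3.64 ± 0.40, adjusted p = 0.000194). The treated arrays of each fraction lay far above the untreated ones. Ces1g exceeded the array median on 4 CD24lo and 2 CD24hi arrays, those of doxorubicin in both fractions and of irradiation in CD24lo cells. It was therefore tested only because it was high on these treated arrays. Ephx1 read 11.23 and 11.42 in treated CD24lo cells (3.26 ± 0.35, adjusted p = 6.27e-05) and 11.88 and 11.86 in CD24hi cells (2.79 ± 0.35, adjusted p = 0.000541). After irradiation, against the same untreated arrays, the changes in CD24lo cells were 4.27 for Ephx1, 2.59 for Cyp3a11 and 1.39 for Ces1g.

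In CD24lo cells the P450 enzymes that rose were Cyp3a11 and Cyp3a25, Cyp4b1 and Cyp4v3, and 7 of 12 Cyp2 genes, Cyp2c55, Cyp2b10, Cyp2d26, Cyp2d22, Cyp2c65, Cyp2j6 and Cyp2c68. Cyp3a25 went from 10.65 and 8.97 to 13.02 and 12.78 (3.09 ± 0.69, adjusted p = 0.00846). Cyp4b1, a hydroxylase of fatty acids and foreign compounds, went from 9.26 and 9.09 to 11.96 and 11.50 (2.56 ± 0.43, adjusted p = 0.00197). Cyp2b10 went from 10.96 and 9.81 to 12.67 and 12.61 (2.26 ± 0.40, adjusted p = 0.00268), and its 2 other probe sets passed too, with changes of 2.51 and 2.56. The treated arrays lay above the untreated ones for these 3 genes.

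Among hydrolases, Ces2b (2.28 ± 0.56), Ephx2 (1.91 ± 0.53) and Ces2f (1.15 ± 0.36) rose beside Ces1g and Ephx1. Of the transferases 8 of 18 Gst genes rose, among them Gstm6 (1.84 ± 0.46), Gstm7 (1.61 ± 0.43) and Gstm1 (1.43 ± 0.37), together with Gsta3, Gstk1, Gstt1 and Gsto1. The other was Gsta2, which read 6.40 and 5.53 in untreated and 8.12 and 8.06 in treated CD24lo cells (2.12 ± 0.47). It met the filter on low levels through these 2 treated arrays and 1 irradiated array, so it was tested only because it was high after doxorubicin. Gstm5 fell. It read 10.86 and 11.16 in untreated and 10.06 and 10.35 in treated CD24lo cells (-0.81 ± 0.18, adjusted p = 0.00839), so the cluster of 7 Gstm genes on chromosome 3 held genes that rose and 1 that fell. Ugt2b5 rose by 2.93 ± 0.74 (adjusted p = 0.0161), and Ugt2b34 (0.85) and the sulfotransferase Sult1d1 (1.41) also rose. Gsta4 read 13.47 and 13.55 and did not pass (0.97 ± 0.40, adjusted p = 0.11).

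In CD24hi cells Gsta4 did pass, from 8.70 and 7.64 to 10.77 and 10.61 (2.52 ± 0.40, adjusted p = 0.0042), and Ces2g rose by 2.65 ± 0.57. Ugt2b5 went from 6.43 and 5.84 to 9.39 and 9.54 (3.33 ± 0.74, adjusted p = 0.0361). For these genes the treated arrays did not overlap the untreated ones. Cyp2b10 read 9.64 and 10.27 and Cyp4b1 8.87 and 9.30 in treated CD24hi cells, and neither passed. The difference between the fractions' changes passed for 0 of 63 enzymes (limma), against 0.0338% of all genes, with 10 at an unadjusted p under 0.05. For Gsta4 it was 1.54 ± 0.57 (adjusted p = 0.345).

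In both fractions Cyp3a11, Ces1g and Ephx1 kept their calls without any 1 array, as did Cyp2b10 and Cyp4b1 in CD24lo cells, and the other calls did not. The count in CD24lo cells was 5 without untreated replicate 2, 5 without doxorubicin replicate 1 and 7 without doxorubicin replicate 2. In CD24hi cells it was 3 without untreated replicate 2, 3 without doxorubicin replicate 1 and 5 without doxorubicin replicate 2, but 21 when only the 2 groups compared were fitted. Second probe sets of Ces2f (1.38, adjusted p = 0.10), Gstm1, Gsto1, Cyp2d22, Cyp2j6 and Ugt2b34 did not pass in CD24lo cells, nor did that of Ces2f in CD24hi cells (1.58, adjusted p = 0.24).

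Markers of other cells moved with doxorubicin. Of the enterocyte list 9 of 18 genes rose and 0 fell in CD24lo cells (median 1.36), where the summed level was 17.48 to 17.66 against 16.36 to 16.63 untreated. In CD24hi cells 3 rose and 0 fell (median 1.78), with a summed level of 16.06 to 16.08 against 14.89 to 15.18. Of the T cell list 4 of 6 tested genes rose in CD24lo cells (median 2.69), with a summed level of 11.74 to 11.78 against 8.41 to 9.89, and up to 2 of its 8 genes on the array lay at or below the array median against up to 8 untreated. In CD24hi cells 0 of the 6 passed (median 1.79), with a summed level of 10.78 to 10.94 against 8.10 to 9.48 and up to 4 of 8 genes at or below the array median against up to 8. Stem cell markers fell in 6 of 10 genes and Paneth cell markers in 6 of 9 genes in CD24lo cells, and 4 of 10 goblet cell genes rose in CD24hi cells. Their part in the change of the enzymes was not tested.

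**Figure D4:**
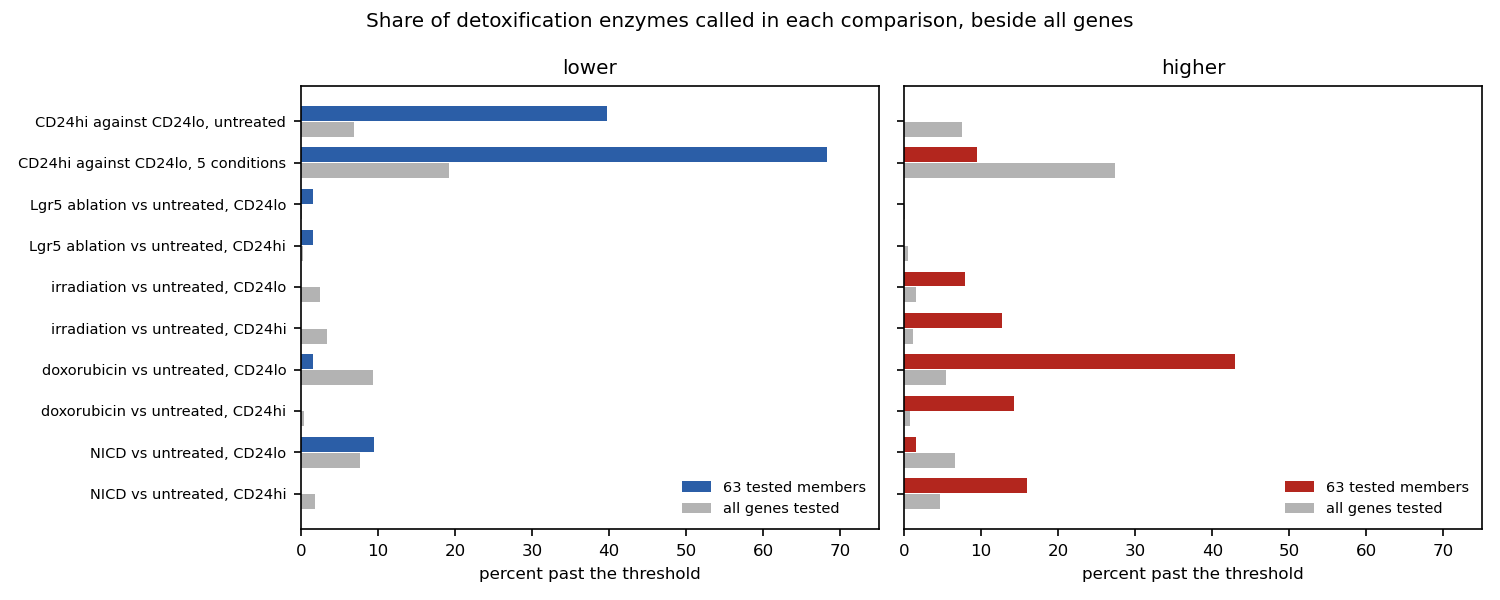
Share of the 63 tested enzymes (bars beside the share of all 11825 genes tested) that was higher or lower in each comparison at an adjusted p under 0.05, in percent from 0. The enzymes' shares are 42.9% higher with doxorubicin in CD24lo cells and 39.7% lower in untreated CD24hi against CD24lo cells, where the shares of all genes were 5.47% and 6.88%.

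With NICD the enzymes that passed were mostly lower in CD24lo and all higher in CD24hi cells. In CD24lo cells 1 of 63 was higher and 6 lower, against 6.63% and 7.72% of all genes, with a median of -0.32, and shares of 1.59% and 9.52% lie below and near that background. In CD24hi cells 10 (15.9%) were higher and 0 lower, against 4.61% and 1.84% of all genes, with a median of 0.40. None of the enzymes passed in both fractions (0 shared), and the overlap over all genes was not counted. The difference between the fractions' changes passed for 6 enzymes, all 6 higher and 0 lower in CD24hi cells, against 1.62% and 0.989% of all genes, with a median of 0.92 over the enzymes and 0.03 over all genes.

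In CD24lo cells the 3 lower P450 enzymes were all of the Cyp4f subfamily. Cyp4f14 went from 11.69 and 11.14 to 9.80 and 8.93 (-2.05 ± 0.62, adjusted p = 0.0383), Cyp4f16 from 10.95 and 10.59 to 9.86 and 9.49 (-1.09 ± 0.23, adjusted p = 0.0119) and Cyp4f13 from 8.56 and 8.48 to 7.79 and 7.58 (-0.84 ± 0.26, adjusted p = 0.044). The groups did not overlap for any of the 3, but the second probe set of Cyp4f16 did not pass (-0.17, adjusted p = 0.72). Gstp1 (-0.83), Gstz1 (-0.74) and Gstt2 (-0.61) were also lower. Ces1d, an esterase that acts on stored lipid, was higher, at 9.39 and 8.89 against 7.44 and 6.67 (2.08 ± 0.64, adjusted p = 0.0412), and its second probe set did not pass (1.38, adjusted p = 0.055). Cyp3a11 read 9.76 and 10.20 (0.83 ± 0.45, adjusted p = 0.21) and Ephx1 8.67 and 8.58 (0.56 ± 0.35, adjusted p = 0.268).

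In CD24hi cells Cyp3a11 went from 6.64 and 6.13 to 9.74 and 9.20 (3.09 ± 0.45, adjusted p = 0.000714), Cyp4b1 from 8.19 and 7.76 to 10.95 and 10.18 (2.59 ± 0.43, adjusted p = 0.00189) and Gstt1, a theta-class transferase, from 9.99 and 9.20 to 11.83 and 12.15 (2.40 ± 0.31, adjusted p = 0.000275). All NICD arrays were above the untreated ones. Cyp4f18, an enzyme of leukotriene breakdown, went from 4.72 and 4.44, close to a zero signal, to 7.72 and 7.82 (3.19 ± 0.61, adjusted p = 0.00466), and it had passed the filter on low levels through these 2 arrays alone. Cyp2d26 (2.35), Gstk1 (2.17), Gsta3 (2.04), Cyp2c65 (1.86), Ephx1 (1.57 ± 0.35, adjusted p = 0.0125) and Gstm5 (0.64) were also higher. Ces1g (0.76 ± 0.40, adjusted p = 0.253) and Gsta4 (1.03 ± 0.40, adjusted p = 0.13) did not pass.

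In CD24hi cells 4 of the 10 calls held without any 1 array, those of Cyp3a11, Cyp4b1, Gstt1 and Gstk1. The count was 4 without NICD CD24hi replicate 2, the array that stood apart, and 4 without untreated CD24hi replicate 2. The calls of Cyp4f18 (highest adjusted p = 0.0593), Gsta3 (0.0872), Cyp2d26 (0.133), Ephx1 (0.195) and Gstm5 (0.426) were lost without either of these arrays, and Cyp2c65 reached 0.246. In CD24lo cells no call held throughout. There the count was 0 without untreated replicate 1, 3 without untreated replicate 2 and 0 without NICD replicate 2.

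The 6 enzymes whose change differed between the fractions were Cyp2d26 (3.61 ± 0.72, adjusted p = 0.0321), Cyp4b1 (2.47 ± 0.61), Gstk1 (2.46 ± 0.53), Gsta3 (2.43 ± 0.56), Gstt1 (1.88 ± 0.43) and Gstz1 (1.25 ± 0.30). Cyp2d26 read 10.69 and 9.94 in untreated and 9.27 and 8.84 in NICD CD24lo cells, and 8.13 and 7.37 against 9.86 and 10.35 in CD24hi cells. Its rise in CD24hi cells passed, while its difference in CD24lo cells did not (-1.26 ± 0.51, adjusted p = 0.0971). Gstz1 read 9.58 and 9.48 against 8.99 and 8.59 in CD24lo cells and 9.82 and 9.71 against 10.10 and 10.46 in CD24hi cells. For Cyp3a11 the difference missed the threshold (2.26 ± 0.64, adjusted p = 0.0608). The count was 0 without NICD CD24hi replicate 2, 15 without NICD CD24hi replicate 1, 1 without untreated CD24lo replicate 2 and 0 without any of untreated CD24lo replicate 1, untreated CD24hi replicate 1, untreated CD24hi replicate 2 and NICD CD24lo replicate 2.

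The marker lists differed between the NICD fractions too. In CD24lo cells 5 of 18 enterocyte genes were lower (median -0.94, summed level 15.60 to 15.72), and 3 of 6 T cell genes were higher. In CD24hi cells 6 of 18 enterocyte genes (median 0.90, summed level 15.47 to 15.88), 6 of 6 tuft cell genes and 9 of 10 enteroendocrine genes were higher and 0 of these lists lower. The tuft list summed to 13.40 to 13.60 against 10.32 to 10.89 in untreated CD24hi cells and the enteroendocrine list to 16.10 to 16.91 against 14.08 to 14.20. The fibroblast list summed to 12.06 to 12.36 against 9.54 to 10.00, with 1 of 2 tested genes higher (Vim) and up to 8 of 10 at or below the array median in both groups. Their part in the changes of the enzymes was not tested.

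After Lgr5 ablation a single enzyme passed, and it was the same in both fractions. Gstm2, a transferase of the mu class, went from 10.53 and 10.04 to 9.15 and 9.17 in CD24lo cells (-1.12 ± 0.19, adjusted p = 0.014), and from 10.55 and 10.54 to 9.18 and 9.55 in CD24hi cells (-1.18 ± 0.19, adjusted p = 0.00335). The 4 ablated arrays were the lowest of all 20 sorted arrays for this gene, whose other 16 ran from 10.04 to 10.86. A count of 1 in 63 is 1.59% of the enzymes, against 0.144% of all genes that were lower in CD24lo and 0.271% in CD24hi cells. No enzyme was higher (0 of 63, limma), against 0.093% and 0.541% of all genes, and 4 and 15 enzymes had an unadjusted p under 0.05. The other 6 genes of the Gstm cluster did not pass in either fraction. The call was lost when the 2 groups were fitted alone in each fraction. In CD24lo cells it was lost without untreated replicate 1 (adjusted p = 0.216) and without either ablated replicate, and in CD24hi cells without ablated replicate 1 (adjusted p = 0.068). Without untreated CD24hi replicate 1 the count was 3. Gsta4 (1.15 ± 0.40, adjusted p = 0.283), Cyp3a11 (1.35 ± 0.45, adjusted p = 0.251), Ces1g (0.94 ± 0.40, adjusted p = 0.44) and Ephx1 (0.85 ± 0.35, adjusted p = 0.414) did not pass in CD24hi cells. The difference between the fractions' changes passed for 0 enzymes (limma), against 0.0169% of all genes, with 4 at an unadjusted p under 0.05.

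**Figure D5:**
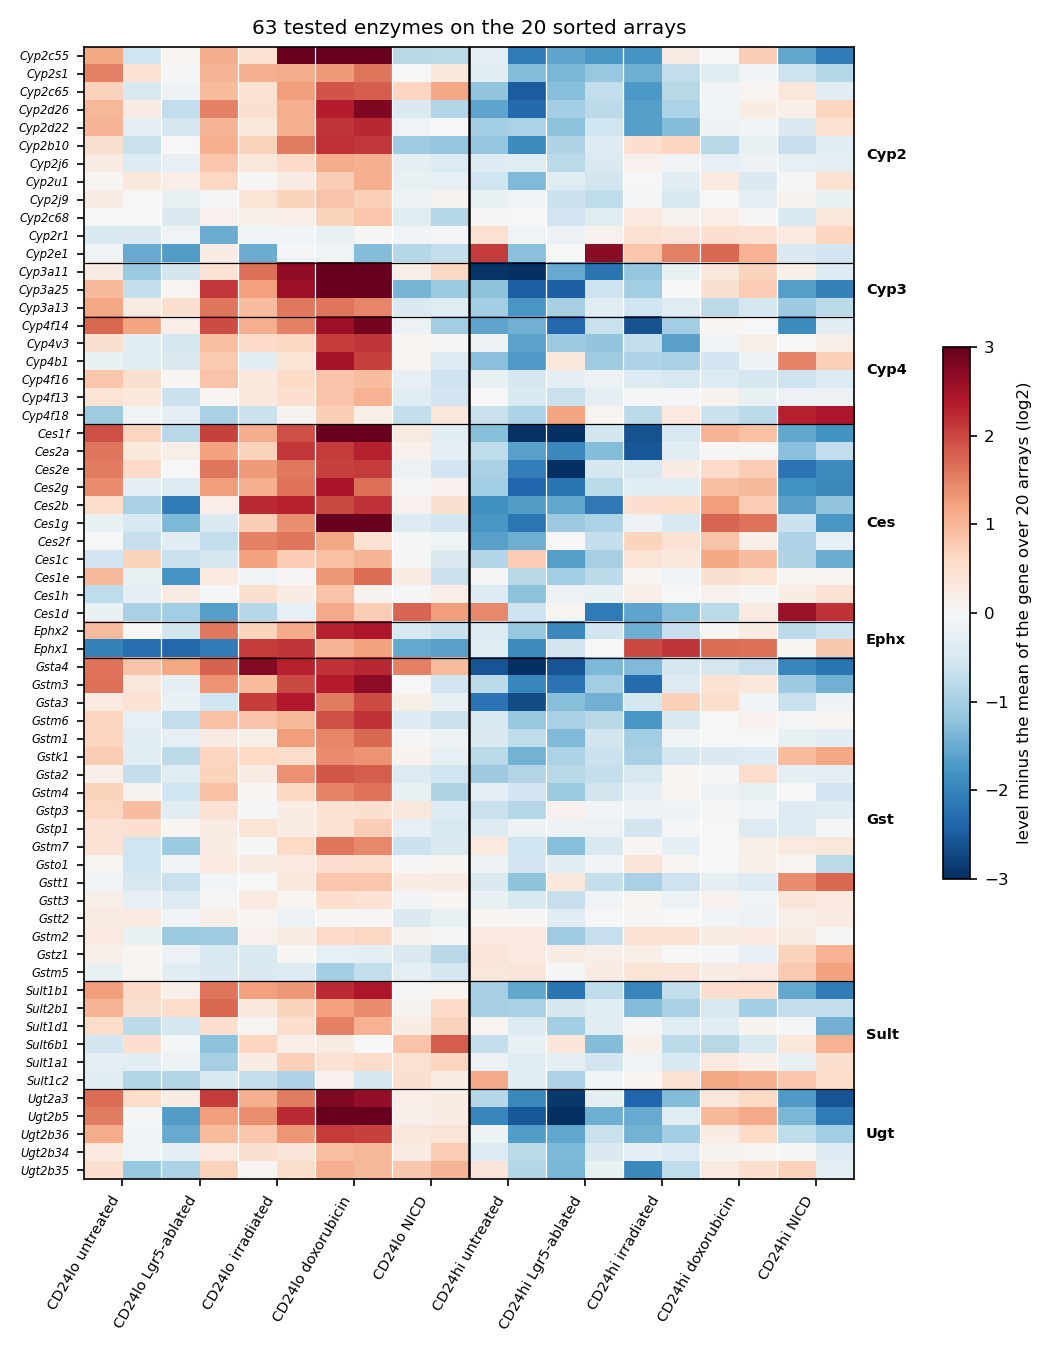
Level of each of the 63 tested enzymes on the 20 sorted arrays, as the difference from the gene's mean over these arrays on the log2(signal + 16) scale, with enzymes grouped by family and arrays by fraction and condition. Ephx1 is high after irradiation and doxorubicin in both fractions and Gstm2 is low on the 4 arrays of Lgr5 ablation.

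Genes that serve the same pathway outside the enzyme families were read from 6 lists. In untreated cells 5 of 15 xenobiotic receptors and regulators were lower and 0 higher in the CD24hi fraction, among them Nr1i3 (-1.95 ± 0.46, adjusted p = 0.00821), which encodes CAR, and Nfe2l2 (-0.95), which encodes NRF2. Of the NRF2 targets 4 of 9 were lower, including Me1 (-2.63 ± 0.26) and Nqo1 (-1.64). Of the AHR targets 1 of 2 was lower, and it was Nqo1 again, which is on both lists. Also lower were 10 of 26 other phase I enzymes, led by the alcohol dehydrogenase Adh4 (-3.32) and the monooxygenase Fmo5 (-2.33). So were 4 of 10 other conjugating enzymes, including Papss2 (-2.35), which makes the sulfate donor. Drug carriers split, with 3 of 18 higher, such as Abcc4 (2.31), and 5 lower, such as Abcc3 (-2.16).

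After irradiation 0 of 15 receptors and 0 of 9 NRF2 targets passed in either fraction. The carrier Abcb1b, which pumps drugs including doxorubicin out of cells, read 4.69 and 4.86 in untreated and 7.01 and 7.89 in irradiated CD24lo cells (2.67 ± 0.51, adjusted p = 0.00691), and 4.67 and 4.34 against 7.23 and 7.91 in CD24hi cells (3.07 ± 0.51, adjusted p = 0.00159). It was also higher after doxorubicin in CD24hi cells, at 7.64 and 7.42 (3.02 ± 0.51, adjusted p = 0.00586), and read 6.04 and 6.02 in CD24lo cells without passing. Its untreated levels lay near that of a zero signal and every treated array named here was above them. With doxorubicin 12 of 26 other phase I enzymes rose and 1 fell in CD24lo cells, led by the carbonyl reductase Cbr3 (2.78 ± 0.40), which reduces anthracyclines in human cells, and 3 rose in CD24hi cells. Me1 rose in both (1.38 and 2.17), but it is 1 gene of the NRF2 list and does not stand for that list. The NRF2 list as a whole summed to 15.787 to 15.848 after doxorubicin against 15.375 to 15.41 untreated in CD24lo cells. In CD24hi cells it summed to 15.285 to 15.302 against 15.006 to 15.147.

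Whole intestine was read on 1 array and its differences have no replicate check. That array had a median signal of 62.7, against 101 to 158 on the sorted arrays, although all had the same trimmed mean. Its intensities were thus distributed differently, which bears on the counts below for the enzymes and for all genes. It was above the highest sorted array by over 1 for 14 of the 117 enzymes (12%), against 3.4% of all 18194 genes, and below the lowest by over 1 for 2 (1.71%), Ces1c and Sult1c2, against 8.73%. The 14 were 4 Cyp2, 4 Cyp4, 2 Sult and 1 each of Cyp3, Ephx, Gst and Ugt. Sult2b1 read 11.66 there and 6.54 to 9.56 over the sorted arrays, Cyp3a13 14.28 against 9.11 to 12.46, and Cyp2d22 10.77 against 5.10 to 9.02. Gsta4 and Ephx1 were not among them, at 11.67 and 8.66, inside their sorted ranges.

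The 54 enzymes that did not pass the filter on low levels had highest sorted levels of 4.81 to 8.24, the top value being that of Cyp2f2 on 1 array. They include all 3 Cyp1 genes. Cyp1a1, the classical AHR target, read 5.93 and 6.70 in untreated CD24lo and 4.20 and 4.40 in CD24hi cells, 7.79 and 7.05 in CD24lo cells after doxorubicin and 8.17 in whole intestine. Of the 63 that passed, Cyp2d22 and Gsta2 did so through CD24lo arrays alone and Cyp4f18 through CD24hi arrays alone. Fewer than 2 CD24lo arrays were above the median for 3 of the 63, Cyp2e1 and Cyp4f18 among them. Fewer than 2 CD24hi arrays were above it for 3, Cyp2d22 and Gsta2 among them. Many of the enzymes lie in gene clusters, with 13 carboxylesterase genes in 2 clusters on chromosome 8 and 11 Ugt and Sult genes in one on chromosome 5. How alike the sequences of these neighbours are was not measured. Of the 63 tested, 16 had a probe set of a type that may also match related genes.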

How the data were processed

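The authors deposited signal intensity per probe set, 45101 probe sets on each of 21 Affymetrix arrays, and the submitters' processing notes name MAS5 as the tool, without a version. Per the labels' protocols, RNA was taken with an Ambion kit and amplified with the GeneChip Pico kit from 0.8 ng. The deposited intensity values were linear, with a mean of 500 on every array once the lowest and highest 2 percent were left out, and came without detection calls, which leaves dim probe sets unseparated from background. Every column was used, and no 2 arrays were identical (0 pairs). For arrays their number limits the precision.

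Only the 34958 probe sets with a single gene symbol were used, not the 932 with several or the 9211 without one. The 117 enzymes had 147 such probe sets, and 10 probe sets of the families carried several symbols and were left out. Signals became log2(signal + 16). Genes were kept when their probe set was above the array median in at least 2 sorted arrays (11825 genes), and tests were run with limma 3.58.1 (R 4.3.3) on 10 group means, moderated variances that follow the mean level, two-sided tests and the Benjamini-Hochberg adjustment over all 11825 genes of a comparison at 0.05. The procedure was checked on simulated data. A group reduced to 1 array took its spread from the remaining groups. The 14 comparisons set CD24hi against CD24lo cells, untreated and as the mean of 5 conditions, and every one of 4 treatments against its untreated fraction, and tested the difference of each treatment's changes between fractions. The irradiation, doxorubicin, NICD and ablation comparisons of a fraction share its untreated arrays.

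The enzymes, lists and tests were chosen with earlier results of these data known. Named in each comparison were Gsta4, Cyp3a11, Ces1g and Ephx1 and the members past the threshold with the largest change, up to 12 in each direction, with up to 3 genes of each pathway list. Ephx2 after irradiation, the untreated levels of Cyp1a1, and Cyp2b10 and Cyp4b1 in CD24hi cells after doxorubicin were named after their values were seen, as were the second probe sets. Alternatives were other pseudocounts, scalings, filters, probe set choices and variance settings, replicate number as a block, the compared groups alone and leaving out each array. Promoter sequences are RefSeq's, on GRCm38.p6, matched by symbol, and all 117 symbols were found in the RefSeq gene table.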

Additional observations from a re-analysis of the deposited data

Results flagged for a closer look

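Whole intestine, which entered no test, was above the highest of the 20 sorted arrays by more than 1 on the log2(signal + 16) scale for 14 enzymes, and the 5 with the largest excess were named by a rule. The excess was 2.09 for Sult2b1, 1.90 for Ugt2b38, 1.82 for Cyp3a13, 1.75 for Cyp2d22 and 1.58 for Cyp4f16. Ugt2b38 did not pass the filter on low levels in sorted cells, where it ran from 4.06 to 6.42. There is 1 such array, so these values carry no error.

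The change with NICD differed between the CD24hi and CD24lo fractions past the test's threshold for 6 enzymes. The difference of the changes was 3.61 for Cyp2d26, 2.47 for Cyp4b1, 2.46 for Gstk1, 2.43 for Gsta3, 1.88 for Gstt1 and 1.25 for Gstz1. None of the 6 held without every one of the arrays compared (0 of 6), and 0 were left without NICD CD24hi replicate 2, the array whose spike-in signal and actin ratio stood apart.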

How the results depend on the processing

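No result reversed under any alternative. Pseudocounts, scalings, filters, probe set choices, variance settings and the fit to the compared groups alone kept every count of enzymes past the threshold within 1.5 times, apart from the following. Fitting the compared groups alone gave 0 enzymes for Lgr5 ablation in CD24lo cells, 0 for Lgr5 ablation in CD24hi cells, 21 for doxorubicin in CD24hi cells and 2 for the difference of the NICD changes, and the last count was 1 with no filter and 0 with no variance trend. The cause was not tested. Leaving out each array in turn gave 8 to 26 enzymes for CD24hi against CD24lo untreated, 48 to 51 averaged over the conditions, 0 to 1 and 0 to 3 for Lgr5 ablation in CD24lo and CD24hi cells, 1 to 5 and 5 to 6 for irradiation, 5 to 30 and 3 to 7 for doxorubicin, 0 to 5 and 4 to 12 for NICD, 0 to 15 for the difference of the NICD changes and 0 to 0 for the other differences. The average over conditions without NICD, chosen after seeing the data, gave 51.

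The deviations of same-numbered arrays correlated from -0.414 to 0.385 over 45 pairs of groups, with 11 over 0.1. These pairs mix groups of different conditions with the CD24lo and CD24hi groups of the same condition. The range therefore cannot decide whether the fractions of a condition were paired by replicate number. The replicate block took the replicate number alone, so it did not model such pairs either. With the replicate block the count was 25 for CD24hi against CD24lo untreated, 49 averaged, 1 and 1 for Lgr5 ablation, 5 and 8 for irradiation, 25 and 9 for doxorubicin, 6 and 10 for NICD in CD24lo and CD24hi cells, 5 for the difference of the NICD changes and 0 for the other differences.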

Other observations

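Probe sets that match several members of a family were kept out of the comparisons above, and 2 such groups are given as values with no test. A probe set shared by Gsta1, Gsta2 and Gm3776 read 13.18 and 11.92 in untreated CD24lo cells and 9.89 and 7.95 in untreated CD24hi cells, and 13.78 and 14.15 against 11.66 and 11.71 after doxorubicin. Its CD24lo arrays were above the CD24hi arrays in both conditions. The Ugt1a genes, which share their last exons and whose best known product conjugates bilirubin, were read by 3 shared probe sets. One of these read 12.76 and 12.15 in untreated CD24lo and 11.25 and 10.78 in untreated CD24hi cells, 13.41 and 13.60 and 11.98 and 11.91 after doxorubicin, and 13.62 in whole intestine. In each fraction the doxorubicin arrays were above the untreated ones.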
